A study of Mus musculus with 16 samples.

Results

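The genes described here carry the names of protein subunits of the mitochondrial ribosome (Mrpl and Mrps), and their transcripts were measured by poly(A)-selected RNA-seq in 16 samples of mouse liver. Members were the rows that map to protein-coding mouse symbols beginning with Mrpl or Mrps and a number and that had a mean of at least 10 counts over the 16 libraries, which gave 77 genes of 46078 in the count table. Of these 77 genes, 48 carry a large subunit name (Mrpl) and 29 a small subunit name (Mrps), and they lie on 17 chromosomes. Male mice of the strain spelled C56B6/J in the labels and C57BL6/J in the study's methods began the diets at 8 weeks of age and stayed for 16 weeks on either diet, CD (control) or HFD (high in fat, with 60% of its calories from fat). Mice were fed or had fasted for 16 h when their livers were removed. This gave the groups CD fed, CD fast, HFD fed and HFD fast, each with 4 libraries. The labels number the samples of a group and do not state that each came from another mouse, so that p-values measure the spread between these samples. All groups were of 1 strain, and the labels name no transgene or drug.

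Mitochondria keep a small genome that encodes only a few subunits of the respiratory chain and ATP synthase, and those subunits are made inside the organelle by a dedicated ribosome. All proteins of that ribosome are encoded in the nucleus, translated in the cytosol and imported, while its RNAs come from the mitochondrial genome. Part of the proteins descend from the bacterial ribosome and the others were added during the evolution of mitochondria. The liver, an organ rich in mitochondria, switches to fatty acid oxidation and ketone production in fasting, and both need the respiratory chain.

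Total counts per library ranged from 41364448 to 57583153. Levels are in CPM, counts relative to the size of the library, where TMM (edgeR's trimmed mean) set the library sizes with factors from 0.929 to 1.13. The highest factor was that of HFD fast replicate 4. The summed level of 6 hepatocyte markers ranged from 71090 to 137700 CPM over libraries, with all 6 detected, and libraries of a group were distinct from each other, with a chi-square per gene of at least 35.8 in all 24 pairs. Counts were tested with edgeR's quasi-likelihood test over 15075 genes. "Higher" and "lower" are used below for an adjusted p under 0.05 (Benjamini-Hochberg over all genes tested), and changes are on the log2 scale.

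All 77 members were among the genes tested, with mean counts from 300.2 to 4760.7 per library and no count under 228. Compared per kilobase of exon, Mrpl12, the stalk protein that recruits translation factors, had the highest level, 64.9 ± 8.36 CPM per kb (SD, n = 16). Mrpl34 followed with 34.6 ± 3.25 and Mrpl14 with 32.6 ± 3.84 CPM per kb, levels that overlapped within their SD. At the other end were Mrps35 with 2.29 ± 0.200, Mrpl33 with 1.65 ± 0.189 and Mrps25 with 1.34 ± 0.154 CPM per kb. The span between the highest and lowest member was 48.4-fold. The median level was 11.3 CPM per kb for large subunit and 6.81 for small subunit genes. Exon length pools all annotated transcripts of a gene. When the longest transcript was used in its place, Mrpl12 remained in rank 1, Mrpl14 in rank 3 and Mrps25 in rank 77, whereas Mrpl34 moved from rank 2 to rank 8, Mrpl33 from 76 to 70 and Mrps35 from 75 to 71.

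A member that matched the name pattern was left out for want of counts. Mrpl53 (chromosome 6, 83109040 to 83109939 of GRCm38, plus strand) had 0 counts in all 16 libraries. In the annotation it lies within Gm42688 on the same strand, which had a mean of 245.5 counts, and the expression of Mrpl53 cannot be read from the table. Another 5 matches were processed pseudogenes, with mean counts of 10.38 for Mrpl23-ps1 and at most 0.06 for the others. Exons of 32 members overlap those of another gene, 7 on the same strand and 26 on the opposite strand, with 1 member in both classes. Reads were aligned as stranded libraries, but the strand setting of the counting step is not given in the sources used here, so that reads of such pairs cannot be told apart. Counts over the 45 members free of overlap are given beside those of all members.

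The summed level of the 77 genes was 2061 ± 52.0 CPM in CD fed and 2177 ± 73.8 CPM in CD fast livers, and with HFD it was 2029 ± 94.1 CPM fed and 1908 ± 122 CPM fasted (SD, n = 4 each). Libraries ranged from 2020 to 2133 CPM in CD fed and from 2072 to 2243 CPM in CD fast livers. They ranged from 1934 to 2131 CPM in HFD fed and from 1752 to 2039 CPM in HFD fast livers. The 4 CD fast libraries lay above the 4 HFD fast libraries, and every other pair of groups that differed in 1 factor overlapped. Without scaling the members took 0.201% (CD fed) and 0.206% (CD fast) of all counts, or 0.208% with HFD in the fed and 0.201% in the fasted state, and the fasted groups then overlapped (0.192 to 0.219% and 0.198 to 0.205%). With TMM scaling, CD fast was the group with the highest mean for 40 members and HFD fast for 1. In that scaling HFD fast had the lowest mean for 50 members. The order of groups was not counted over all genes or with total counts, so that whether these numbers are unusual cannot be told. The median coefficient of variation of a member between libraries of a group was 6.12% for CD fed, 8.44% for CD fast, 6.49% for HFD fed and 7.70% for HFD fast. In bulk liver, fewer cells of a type and less RNA per cell cannot be told apart.

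**Figure D1:**
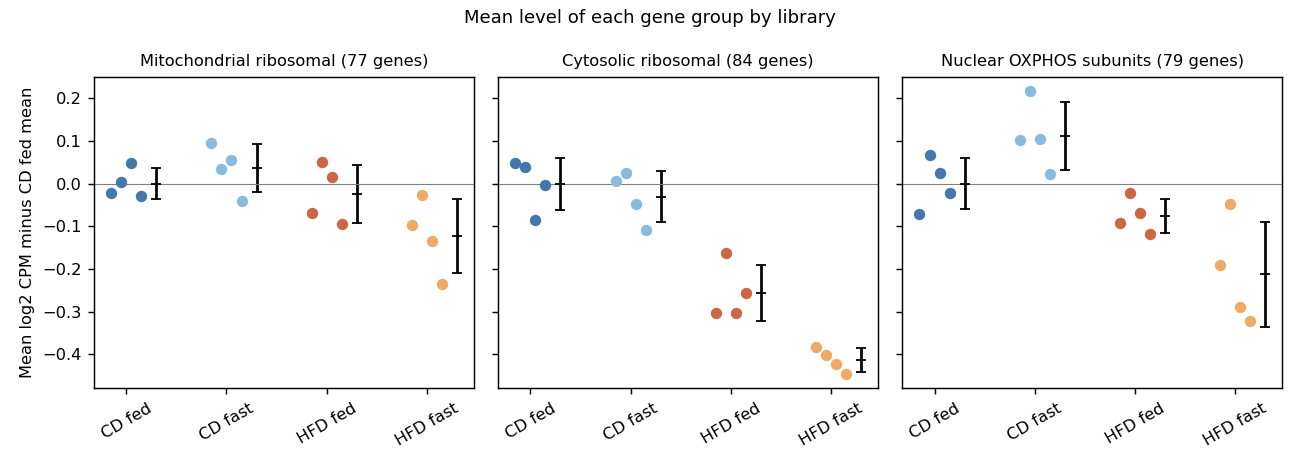
Mean log2 CPM of the genes of 3 groups in each library (points), relative to the mean of the 4 CD fed libraries, for mitochondrial ribosomal, cytosolic ribosomal and nuclear oxidative phosphorylation (OXPHOS) genes; black marks give the mean ± SD of 4 libraries. Mitochondrial ribosomal genes had means of 4.56 in CD fed and 4.44 in HFD fast livers, while cytosolic ribosomal genes went from 6.83 to 6.41.

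The region around the transcription start was examined because nearly all members encode parts of the same ribosome. RefSeq promoters of GRCm38.p6, 250 bases before to 50 bases after the annotated start, were matched by symbol for 68 of the 77 members. Mrpl13, Mrpl15, Mrpl19, Mrpl38, Mrpl4, Mrpl54, Mrps28, Mrps34 and Mrps35 had no entry. The promoters printed are those of the member with the largest rise with fasting in CD (Mrpl17), the member whose response to fasting differed between diets (Mrpl47), a member lower with fasting in both diets (Mrps22) and the member with the largest fall with fasting in CD (Mrps27). Capitals mark the letters searched, which were CGCATGCG for NRF1, CCGGAAG for ETS factors such as GABPA, AAGATGG for YY1 and TCAAGGTCA for estrogen-related receptors (ERR), each on both strands. Among these factors are known regulators of nuclear genes for mitochondrial proteins. Sequences run 5′ to 3′ on the strand of the gene, Mrpl17 at chr7:105811038-105811337 (minus strand), Mrpl47 at chr3:32736706-32737005 (minus), Mrps22 at chr9:98601630-98601929 (minus) and Mrps27 at chr13:99344536-99344835 (plus).
Mrpl17: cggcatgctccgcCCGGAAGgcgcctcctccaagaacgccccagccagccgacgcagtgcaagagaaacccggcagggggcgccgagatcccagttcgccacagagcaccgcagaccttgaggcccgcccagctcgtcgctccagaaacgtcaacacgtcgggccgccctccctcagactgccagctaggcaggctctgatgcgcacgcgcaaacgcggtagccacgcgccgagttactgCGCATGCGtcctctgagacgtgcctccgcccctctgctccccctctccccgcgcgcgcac
Mrpl47: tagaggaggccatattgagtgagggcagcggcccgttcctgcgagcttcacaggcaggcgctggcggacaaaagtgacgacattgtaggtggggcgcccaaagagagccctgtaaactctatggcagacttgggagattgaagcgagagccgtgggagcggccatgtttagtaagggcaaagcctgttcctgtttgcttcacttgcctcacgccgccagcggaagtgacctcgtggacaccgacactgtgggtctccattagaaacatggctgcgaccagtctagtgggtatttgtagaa
Mrps22: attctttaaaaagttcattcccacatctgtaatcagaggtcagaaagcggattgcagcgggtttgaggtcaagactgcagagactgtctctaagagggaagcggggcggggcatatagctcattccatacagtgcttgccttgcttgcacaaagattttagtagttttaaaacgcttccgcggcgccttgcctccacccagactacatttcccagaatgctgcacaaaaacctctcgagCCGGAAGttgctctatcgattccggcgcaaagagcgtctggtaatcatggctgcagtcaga
Mrps27: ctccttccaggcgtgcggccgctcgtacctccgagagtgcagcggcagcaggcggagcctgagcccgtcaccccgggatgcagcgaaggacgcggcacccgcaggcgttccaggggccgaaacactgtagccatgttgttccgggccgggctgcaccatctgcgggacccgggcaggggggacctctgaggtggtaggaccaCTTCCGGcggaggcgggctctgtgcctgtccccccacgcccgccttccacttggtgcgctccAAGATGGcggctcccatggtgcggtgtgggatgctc

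The Mrpl17 promoter held the NRF1 letters from position -10 relative to the start and the ETS letters from -237. That of Mrps22 held the ETS letters from -11. In Mrps27 the ETS letters stood on the opposite strand at -48 and the YY1 letters at 14, after the start. None of the letters were found in Mrpl47. Over the 68 members with a promoter, the ETS letters were in 25 (36.8%). They were in 19.0% of 10502 protein-coding genes tested with a promoter and in 9.93% of all 27025 genes with a promoter. The YY1 letters were in 13 members (19.1%), against 8.11% and 7.28%, and the NRF1 letters in 7 (10.3%), against 4.07% and 2.07%. The ERR letters were in 0 members, against 0.34% and 0.47%, and 31 members held none of the letters. Matches of ETS letters had a median position of -17, with 23 of 29 between -60 and 40, while 9 of 15 YY1 matches began at or after the start. Among members with a promoter, the ETS letters were in 4 of 10 that were higher and 2 of 4 that were lower with fasting in CD, in 3 of 5 that were lower with fasting in HFD, and in 3 of 10 that were lower with HFD in fasted mice. The NRF1 letters were in 1 of 10, 1 of 4, 2 of 5 and 0 of 10 of the same members. A match describes letters and is not a measured binding site.

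**Figure D2:**
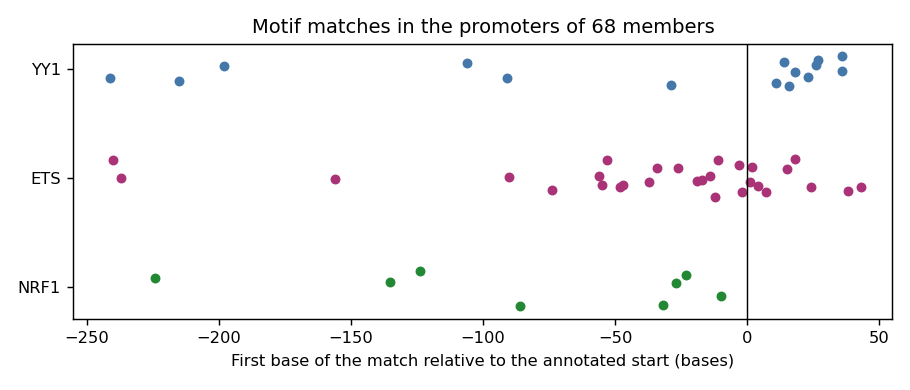
Position of the first base of each match of the YY1, ETS and NRF1 letters in the promoters of 68 members, in bases from the annotated start (vertical line at 0); 1 point per match, with vertical spread for legibility only. The 29 ETS matches had a median position of -17, the 15 YY1 matches of 14 and the 8 NRF1 matches of -59.

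Many members start beside another gene. For 33 of the 77 (42.9%) a protein-coding gene on the opposite strand began within 1000 bases, against 15.3% of 13315 protein-coding genes tested. Some of these neighbours also serve mitochondria. Mrpl46 and Mrps11 start 412 bases apart, Mrpl36 starts 29 bases from Ndufs6, a complex I subunit, Mrps12 172 bases from Sars2, the mitochondrial seryl-tRNA synthetase, and Mrpl43 779 bases from Twnk, the mitochondrial DNA helicase. Members were also short, with a median longest transcript of 1884 bases against 3386 for the genes tested, while the GC content of that transcript was alike (49.7% in both).

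Fasting on the control diet asked how the liver responds to the loss of food when no high-fat diet precedes it. Of the 77 members 18 changed (23.4%), 13 higher and 5 lower after the fast, and 20 of the 77 had an unadjusted p under 0.05, against 37.6% of all genes. Over all 15075 genes 25.2% changed, 13.7% higher and 11.5% lower, so that the members changed about as often as other genes. The median change of the members was 0.03 and that of all genes -0.01. The members' median was -0.01 with total count scaling, where 10 were higher and 8 lower (10.8% and 13.6% of all genes), 0.00 with GC and length offsets, and -0.01 without CD fast replicate 1. No member moved by 1 or more, and called changes ranged in size from 0.16 to 0.70. Of the 77 members 21 had CD fast and CD fed libraries that did not overlap, against a background of 25.4%, and 16 of those 21 were among the called.

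Mrpl17 (ENSMUSG00000030879, chromosome 7, 105803206 to 105811099), a large subunit protein with a bacterial homolog, changed most. Its level was 38.8, 43.5, 42.2 and 42.3 CPM in the CD fed libraries and 64.5, 82.6, 61.8 and 61.9 CPM in the CD fast libraries. Every fasted library lay above every fed library, and CD fast replicate 2 was the highest. The rise was 1.62-fold, or 0.70 on the log2 scale (SE 0.10, adjusted p = 0.00013), and it was 0.59 to 0.73 with 1 library left out. Mrpl15, also of bacterial descent, was at 46.2, 53.0, 54.7 and 50.6 CPM in CD fed and at 61.5, 78.0, 65.9 and 70.4 CPM in CD fast livers. It rose 1.35-fold without overlap between libraries (0.43, SE 0.09, adjusted p = 0.00209).

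Mrpl47 and Mrpl24, both of which sit near the exit of the tunnel through which the new peptide leaves, were higher as well. Mrpl47 was at 10.54, 9.18, 11.5 and 9.41 CPM in CD fed and 14.3, 12.8, 13.3 and 12.6 CPM in CD fast livers (0.38, SE 0.08, adjusted p = 0.00405). Mrpl24 went from 53.9 ± 0.643 to 63.3 ± 1.59 CPM (SD, n = 4; 0.23, SE 0.05, adjusted p = 0.00543). Among small subunit genes Mrps2 went from 31.3 ± 2.25 to 42.3 ± 4.91 CPM (0.44, SE 0.10, adjusted p = 0.00583) and Mrps34 from 31.6 ± 2.26 to 40.8 ± 4.39 CPM (0.37, SE 0.09, adjusted p = 0.00719). Fed and fasted libraries were separate for these 4 genes. Mrps34 shares exon sequence with Nme3 on the same strand, and Mrpl24 with Rrnad1 on the opposite strand, whose change was 0.27 (adjusted p = 0.0603). The other members that rose were Mrpl12, Mrpl20, Mrpl42, Mrpl43, Mrpl51, Mrpl54 and Mrps33, by 0.16 to 0.32. The calls of the 6 rises given with values held in all 16 fits that left out 1 library.

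The 5 members that fell with fasting in CD included 4 of the small subunit. Mrps27, a pentatricopeptide repeat protein that binds RNA, was at 29.1, 31.6, 33.4 and 30.01 CPM in CD fed and at 19.0, 24.1, 24.04 and 21.8 CPM in CD fast livers. The groups did not overlap, and Mrps27 fell by 0.48 (SE 0.10, adjusted p = 0.00374), to 0.717 of its fed level. Mrps28, a bacterial homolog, was at 16.1, 18.1, 16.8 and 16.3 CPM in CD fed and at 13.8, 12.7, 13.8 and 13.2 CPM in CD fast livers, again without overlap. It fell by 0.33 (SE 0.07, adjusted p = 0.00265).

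Mrps22, a protein specific to mitochondria, fell by 0.33 without overlap (SE 0.11, adjusted p = 0.0364), from 18.1 ± 1.598 to 14.4 ± 1.83 CPM (SD, n = 4). Mrps25 fell by 0.34 (SE 0.09, adjusted p = 0.0153) and Mrpl39 by 0.29 (SE 0.10, adjusted p = 0.041), both with overlapping libraries. Exons of Mrps25 overlap Nr2c2 on the opposite strand, which had a mean of 1514 counts and fell by 0.50 (adjusted p = 0.00118). These last calls depended on single libraries. That of Mrps25 was lost without CD fed replicate 3 (adjusted p = 0.0511), and that of Mrps22 without CD fast replicate 2 (0.107) or 4 (0.0775) or CD fed replicate 1 (0.101) or 3 (0.0831). That of Mrpl39 was lost on leaving out any of 9 libraries, namely CD fast replicates 1 (0.0859), 2 (0.115) and 4 (0.0759), CD fed replicates 1 (0.106), 3 (0.0788) and 4 (0.0608), HFD fast replicates 1 (0.051) and 3 (0.0517) and HFD fed replicate 1 (0.0508). When only the 8 CD libraries were fitted, the adjusted p was 0.0621 for Mrps25, 0.0545 for Mrps22 and 0.0557 for Mrpl39. The 45 members free of exon overlap gave 7 higher and 3 lower (22.2% called, against 25.2% of all genes). Markers of other cells also moved in this comparison. Summed levels of 6 Kupffer cell markers ranged from 148 to 292 CPM in CD fed and from 98.1 to 164 CPM in CD fast livers, those of 5 endothelial markers from 198 to 223 and from 147 to 194 CPM, and those of 5 stellate cell markers from 200 to 262 and from 120 to 202 CPM. Of these markers Adgre1, Clec4f, Pecam1, Stab2 and Reln were lower (5 of 16) and none was at 0 in all libraries. Of the 6 hepatocyte markers Ttr alone was lower (-0.92), and the others ranged from -0.46 (Serpina1c) to 0.27 (Apoa1). Of 4 red cell markers Alas2 alone was lower (-1.09), and the others ranged from -0.20 (Hba-a1) to 0.29 (Slc4a1). Cela1, the only pancreas marker tested, was lower as well. Their part in the members' changes was not tested.

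**Figure D3:**
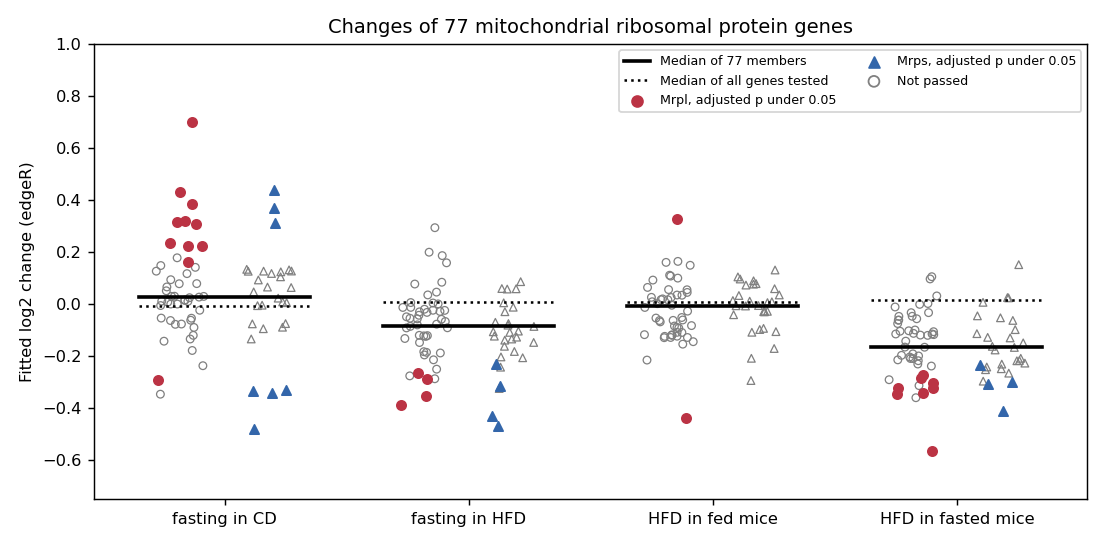
Fitted log2 change of each of the 77 members in 4 pairwise comparisons; circles are Mrpl and triangles Mrps genes, filled where the adjusted p was under 0.05, with the median of the members (solid line) and of 15075 genes (dotted line). With fasting in CD 13 filled points lie above and 5 below 0, while with HFD in fasted mice all 12 filled points lie below 0, where the members' median was -0.17.

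Fasting on the high-fat diet changed 8 members (10.4%), against 8.86% of all genes. All 8 were lower, against 4.07% of all genes that were lower, and 25 members (32.5%) had an unadjusted p under 0.05, against 25.6% of all genes. The median change was -0.09 for the members and 0.01 for all genes. The members' median was -0.04 with total count scaling, when the median of all genes was 0.06, 5 members were lower and 1 was higher (7.79% called). With that scaling 8.78% of all genes were called, so that the members' share lay below that of all genes and not above it. Fed and fasted HFD libraries were fully separate for 10 members (background 16.7%), of which 6 were called.

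Mrps28 had the smallest p. Its level was 16.5, 17.4, 17.5 and 14.6 CPM in HFD fed and 11.97, 12.2, 11.7 and 11.7 CPM in HFD fast livers, so that every fasted library was below every fed library. It fell by 0.47 (SE 0.07, adjusted p = 0.00113), or to 0.722 of its fed level, and the call held in all 16 fits that left out 1 library. Mrps22 was at 19.0, 19.98, 20.1 and 14.9 CPM in HFD fed and at 13.4, 14.1, 14.99 and 12.5 CPM in HFD fast livers. HFD fed replicate 4 lay among the fasted libraries, and Mrps22 fell by 0.43 (SE 0.11, adjusted p = 0.0258). Mrpl39 fell by 0.35 with overlapping libraries (SE 0.10, adjusted p = 0.0366), from 40.8 ± 2.56 to 31.9 ± 4.16 CPM (SD, n = 4).

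Without overlap between libraries, the bacterial homolog Mrpl19 fell by 0.29 (SE 0.07, adjusted p = 0.0226) and the mitochondria-specific Mrps31 and Mrps23 fell too, Mrps31 by 0.31 (SE 0.08, adjusted p = 0.0291) while Mrps23 fell by 0.23 (SE 0.06, adjusted p = 0.0349). Mrpl38 and Mrpl22 also fell, by 0.39 and 0.26. The count moved with single libraries, as did the share of all genes called. It was 4 without HFD fast replicate 1, 2 without replicate 3 and 2 without replicate 4. It was 3 without HFD fed replicate 1, 1 without replicate 2, 1 without replicate 3 and 13 without HFD fed replicate 4. In the same order of 7 fits 4.96%, 4.73%, 7.08%, 3.36%, 5.78%, 5.35% and 9.96% of all genes were called. When only the 8 HFD libraries were fitted it was 3 (6.53% of all genes called), and without both HFD fast replicate 4 and HFD fed replicate 4, left out together after the data were seen, it was 4 (6.91% of all genes). The call of Mrps22 was lost without HFD fast replicate 1 (adjusted p = 0.0647) or 4 (0.0653) or HFD fed replicate 1 (0.0726), 2 (0.0688) or 3 (0.0728). That of Mrpl39 was lost without HFD fast replicate 1 (0.078), 3 (0.083) or 4 (0.0891) or HFD fed replicate 1 (0.0894), 2 (0.0837) or 3 (0.0874), and that of Mrps23 without the same libraries, with adjusted p from 0.0646 to 0.0938. Mrpl19 was above the threshold without HFD fast replicate 3 (0.0664) or 4 (0.0568) or HFD fed replicate 2 (0.065) or 3 (0.0662), and Mrps31 without HFD fast replicate 3 (0.0912) or HFD fed replicate 2 (0.0724) or 3 (0.0891). With total counts the adjusted p was 0.0751 for Mrps31 and 0.104 for Mrps23. Of the 45 members free of overlap 7 were lower (15.6%, against 4.07% of all genes). Of the 6 hepatocyte markers Hnf4a alone was lower (-0.55), and the others ranged from -0.66 (Ttr) to -0.09 (Apoa1). Cela1, the only pancreas marker tested, was lower, and Cfd, the only fat cell marker tested, was higher. Of 4 red cell markers Alas2 was lower (-0.38) and Slc4a1 higher (1.89), while Hba-a1 (0.65) and Hbb-bs (0.71) did not pass. Summed adipocyte markers ranged from 0.356 to 3.49 CPM in HFD fed and from 2.08 to 70.3 CPM in HFD fast livers. Summed erythroid markers ranged from 238 to 266 and from 254.5 to 403 CPM. Their part was not tested.

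The fasting comparisons of the diets share no library. Mrps28, Mrps22 and Mrpl39 were lower in both, which is 3.90% of the 77 members, 60.0% of the 5 members lower in CD and 37.5% of the 8 lower in HFD. Over all genes 298 (1.98%) were lower in both, or 17.2% of the 1731 lower in CD and 48.5% of the 614 lower in HFD. A difference from this background was not tested. No member was higher in CD and lower in HFD. Mrpl17 was at 40.03, 46.9, 44.0 and 46.9 CPM in HFD fed and 60.9, 51.8, 55.1 and 49.95 CPM in HFD fast livers. Its libraries did not overlap in HFD either, but the change of 0.29 had an adjusted p of 0.0654 (SE 0.09). In HFD mice Mrpl15 changed by 0.08 (adjusted p = 0.576), Mrpl24 by 0.00 (0.976), Mrps2 by 0.06 (0.761) and Mrps34 by 0.06 (0.716).

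**Figure D4:**
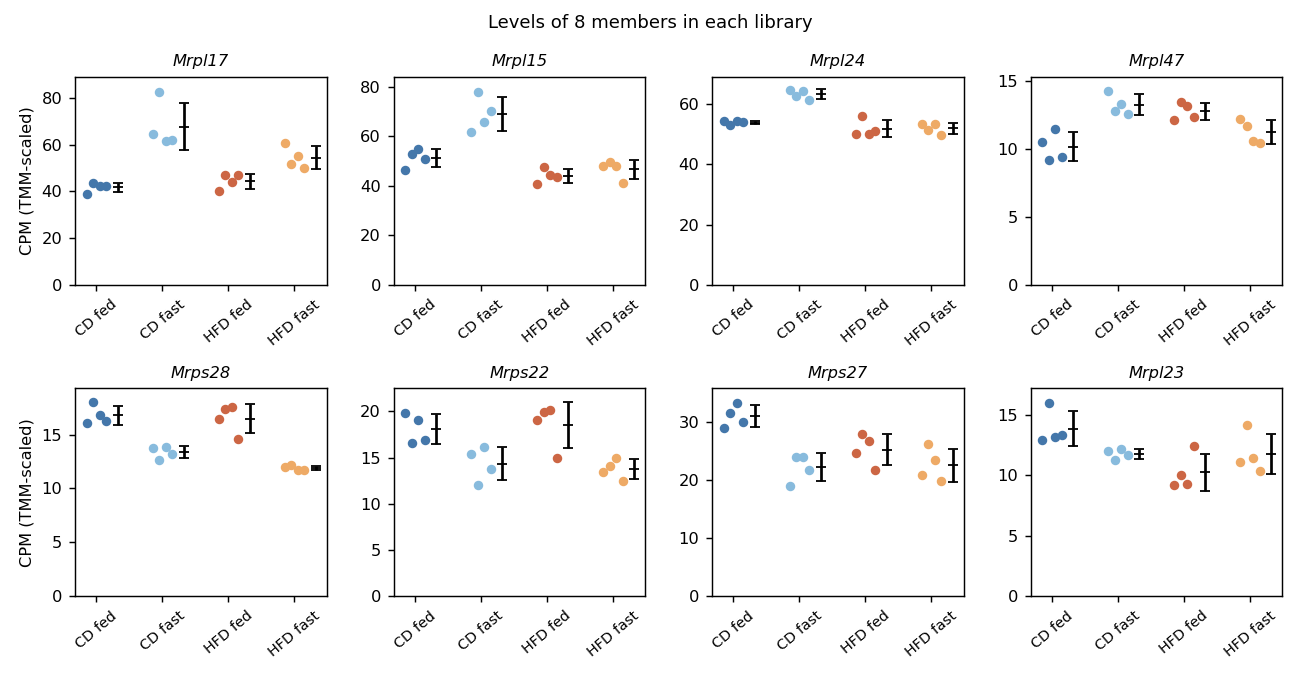
Levels of 8 members in each of the 16 libraries (points), in TMM-scaled CPM on axes that begin at 0, with the mean ± SD of the 4 libraries of a group beside them. Mrps28 was lower after fasting in both diets, at 13.4 CPM in CD fast and 11.9 CPM in HFD fast livers on average, whereas Mrpl15 had its highest mean, 69.0 CPM, in CD fast livers.

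In fed mice the high-fat diet changed 2 members (2.60%), against 7.50% of all genes, and 7 (9.09%, against 22.9% of all genes) had an unadjusted p under 0.05. Fed libraries of the diets were fully separate for 6 members, against a background of 15.7%. The median change was -0.01 for the members and 0.01 for all genes, and 0.06 and 0.08 with total count scaling. With GC and length offsets the members' median was 0.02. Mrpl47 was higher with HFD, at 12.1, 13.4, 13.2 and 12.3 CPM in the HFD fed libraries, all above the CD fed libraries given above. It rose 1.26-fold (0.33, SE 0.08, adjusted p = 0.0275). Mrpl23, which lines the peptide exit, was at 12.9, 16.0, 13.2 and 13.3 CPM in CD fed and 9.19, 10.02, 9.26 and 12.4 CPM in HFD fed livers. It fell by 0.44 without overlap (SE 0.11, adjusted p = 0.0281).

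Both calls were lost when only the 8 fed libraries were fitted, which left 0 members called, and that of Mrpl23 also with total count scaling (adjusted p = 0.0516). Without CD fed replicate 2 the adjusted p was 0.0938 for Mrpl47 and 0.0993 for Mrpl23, without HFD fed replicate 2 it was 0.0688 and 0.0618, and without HFD fed replicate 3 it was 0.077 and 0.087. Mrpl47 was also above the threshold without CD fed replicate 4 (0.0731) and Mrpl23 without HFD fed replicate 1 (0.0787). Of the 45 members free of overlap 0 were higher and 1 lower (2.22% called, against 7.50% of all genes), since Mrpl47 shares exon sequence with genes on the opposite strand.

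In fasted mice the high-fat diet changed 12 members (15.6%), all of them lower, against 7.70% of all genes changed and 4.65% lower. An unadjusted p under 0.05 was found for 36 members (46.8%, against 25.9% of all genes), and the fitted change was negative for 69 of 77 (89.6%, against 48.0%). With total counts it was negative for 40 members (52.0%, against 24.6% of all genes). The median change was -0.17 for the members and 0.01 for all genes. CD fast and HFD fast libraries did not overlap for 23 members, against a background of 14.0%, and 11 of them were called. The scaling set the size of these changes. With total counts the median was -0.01 for the members and 0.17 for all genes, a like distance between them of -0.18. In that scaling 1 member was lower and 1 higher (2.60% called), against 13.9% of all genes called, 12.3% higher and 1.66% lower, so that the members' share called lay above that of all genes with TMM and below it with total counts. With offsets for GC content and length the members' median was -0.11 and that of all genes 0.00, and 14 members were lower, of which 9 were among the 12, with 7.83% of all genes called.

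Mrpl15 changed most, from the CD fast values given above to 47.8, 49.6, 48.0 and 41.1 CPM in HFD fast livers. The lowest CD fast library, at 61.5 CPM, was above all of these, and Mrpl15 was at 0.676 of its level in CD fast (-0.56, SE 0.09, adjusted p = 0.00347). Mrps33, a small protein of the small subunit, was at 30.8, 25.3, 22.2 and 22.9 CPM in CD fast and 19.6, 19.7, 19.3 and 17.3 CPM in HFD fast livers. It was lower by 0.41 without overlap (-0.41, SE 0.09, adjusted p = 0.0132), and CD fast replicate 1 was the highest.

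Mrpl42 was lower by 0.32 (-0.32, SE 0.06, adjusted p = 0.00569), with libraries from 36.9 to 41.01 CPM in CD fast and from 30.2 to 32.1 CPM in HFD fast livers. Mrpl24 changed by -0.28 (SE 0.05, adjusted p = 0.00788), Mrpl51 by -0.31 (SE 0.06, adjusted p = 0.0101) and Mrpl20 by -0.34 (SE 0.08, adjusted p = 0.0155). The fasted libraries of the diets were separate for each, and all 6 of the members given here except Mrpl15 were above the threshold with total counts. Mrpl12, the most abundant member, was at 124, 131, 111 and 102 CPM in CD fast and 101, 96.5, 88.8 and 82.2 CPM in HFD fast livers, without overlap (-0.34, adjusted p = 0.0224). Mrpl14, Mrpl30, Mrps23, Mrps31 and Mrps34 were lower by 0.23 to 0.32 (log2 changes of -0.32 to -0.23), and of these Mrps34 had overlapping libraries. Exons of Mrpl14 overlap Tmem63b on the opposite strand, which had a mean of 3616 counts and changed by -0.39 (adjusted p = 0.00883).

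This comparison and that of fasting in CD share the CD fast libraries. Side by side, the changes were 0.43 with fasting in CD and -0.56 with HFD in fasted mice for Mrpl15, 0.31 and -0.41 for Mrps33, and 0.32 and -0.34 for Mrpl12. The number lower was 7 when CD fast replicate 1 was left out, 6 for HFD fast replicate 3 and 5 for HFD fast replicate 4, and it was 1 when only the 8 fasted libraries were fitted. Of all genes 4.77%, 3.65%, 3.54% and 0.590% were called in these 4 fits. Without both HFD fast replicate 4 and HFD fed replicate 4 it was 6, with 4.51% of all genes called. Over all genes, deviations from the group means correlated at 0.662 between these 2 libraries, the highest value of any pair from different groups, and each had the highest summed stellate cell markers of its group (366 and 368.5 CPM). CD fed replicate 1 correlated at 0.364 with HFD fast replicate 4 and at 0.386 with HFD fed replicate 4. It had the highest summed stellate cell markers of CD fed (262 CPM). HFD fast replicate 4 also had the lowest summed level of the members of all libraries (1752 CPM). The part of these features in the members' change was not tested. The call of Mrpl20 was lost without HFD fast replicate 4 (adjusted p = 0.0524), and the other 5 of the 6 smallest p held in all 16 fits. The 45 members free of overlap gave 7 lower (15.6%, against 4.65% of all genes) and 0 higher. Summed endothelial markers ranged from 147 to 194 CPM in CD fast and from 179 to 236 CPM in HFD fast livers, and summed stellate cell markers from 120 to 202 and from 211 to 366 CPM, with Pecam1, Stab2 and Reln higher (3 of 10) and none at 0 in all libraries. Of 4 red cell markers Alas2 alone was higher (0.39), and the others ranged from 0.19 (Hba-a1) to 1.17 (Slc4a1). Their part was not tested.

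Whether diet altered the response of a member to fasting was tested as the interaction, which subtracts the change with fasting in CD from that in HFD. It differed from 0 for 1 member (1.30%), against 2.59% of all genes, and 18 members (23.4%) had an unadjusted p under 0.05, near the 20.2% of all genes. The median was -0.14 for the members and 0.00 for all genes, and with total counts -0.05 and 0.09. The member was Mrpl47. Fasting raised it by 0.38 in CD and changed it by -0.18 in HFD (SE 0.08, adjusted p = 0.181), where libraries went from the HFD fed values given above to 12.2, 11.7, 10.6 and 10.4 CPM. The interaction was -0.57 (SE 0.12, adjusted p = 0.0232). The call was lost without CD fed replicate 2 (0.053), HFD fast replicate 3 (0.0544) or HFD fed replicate 3 (0.051). Exons of Mrpl47 overlap those of Ndufb5 and Actl6a on the opposite strand, with means of 3474 and 836 counts, whose interactions were -0.22 (adjusted p = 0.21) and 0.06 (adjusted p = 0.839). Of the 45 members free of overlap 0 were called, against 2.59% of all genes.

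Next in p among negative values were Mrps23 (-0.34, SE 0.09, adjusted p = 0.0569) and Mrps31 (-0.38, SE 0.12, adjusted p = 0.0931). Positive values of smallest p were those of Mrpl23 (0.44, SE 0.16, adjusted p = 0.141), Mrps27 (0.32, SE 0.15, adjusted p = 0.239) and Mrps25 (0.26, SE 0.13, adjusted p = 0.284), none of which passed. DESeq2 called 6 members, all negative, Mrps23 (adjusted p = 0.00978) and Mrps31 (0.0352) among them, and it called 7.07% of all genes, so that 6 of 77 was near the background of that tool.

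By subunit, fasting in CD gave 10 higher and 1 lower of 48 large subunit genes and 3 higher and 4 lower of 29 small subunit genes. The shares called, 22.9% and 24.1%, were close to the 25.2% of all genes. HFD in fasted mice gave 8 lower large (16.7%) and 4 lower small (13.8%) subunit genes, where 4.65% of all genes were lower, and fasting in HFD gave 4 of each (8.33% and 13.8%), where 4.07% of all genes were lower. A difference between the subunits was not tested. By descent, 46 members have a bacterial homolog, 29 are specific to mitochondria and 2 were left unclassified. With fasting in CD 7 of the homologs were higher and 1 lower, and 6 of the specific proteins were higher and 4 lower, so that 17.4% and 34.5% were called against 25.2% of all genes. With HFD in fasted mice 6 of each were lower (13.0% and 20.7%, against 4.65% of all genes). These splits are with TMM scaling. With total counts 1 of all 77 members was lower and 1 higher with HFD in fasted mice, against 1.66% and 12.3% of all genes.

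Names do not always give a protein's place. Mrps18a and Mrps30 sit in the large subunit despite their names, Mrps18a, Mrps18b and Mrps18c are paralogs, and Mrps36 is a subunit of the oxoglutarate dehydrogenase complex rather than of the ribosome. None of these 5 genes passed the threshold in any of the 5 comparisons. Mrps18a was at 24.5 ± 0.568 CPM in CD fed and 24.4 ± 2.01 CPM in CD fast livers, against 24.1 ± 1.17 and 22.0 ± 0.845 CPM in the fed and fasted state with HFD (SD, n = 4). Mrps18b was higher, at 33.6 to 39.4 CPM on average, and Mrps18c lower, at 10.4 to 11.7 CPM, where CD fast libraries spread from 7.96 to 15.5 CPM. Per kilobase of exon their mean levels over all libraries were 17.4 CPM for Mrps18b, 10.2 for Mrps18c and 6.44 for Mrps18a. Mrps36 had the largest change of the 5, -0.33 with fasting in HFD (SE 0.11, adjusted p = 0.0822).

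Over the 16 libraries the members varied alike to different degrees. The Pearson correlation of a member's log2 CPM with the mean of the other 76 was highest for Mrps7 (0.92), Mrpl30 (0.88) and Mrpl34 (0.86) and lowest for Mrps25 (0.07), Mrpl17 (0.10) and Mrps15 (0.14). The median was 0.61, and 52 members were above 0.5 and 0 below 0. These values describe 16 libraries that share scaling factors and groups. Mrpl17, the member that changed most with fasting in CD, was thus among those least like the rest.

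Other genes of mitochondrial translation were taken from lists. Of 5 ribosome proteins with other names 1 was called per fasting comparison, against 25.2% (CD) and 8.86% (HFD) of all genes. Gadd45gip1 alone changed, lower with fasting in CD (-0.32, SE 0.10, adjusted p = 0.0342) and in HFD (-0.41, SE 0.10, adjusted p = 0.0243). The first call was lost without CD fast replicate 2 or 4 or CD fed replicate 2, 3 or 4 (adjusted p from 0.064 to 0.094) and the second without HFD fast replicate 1 or 4 or HFD fed replicate 1, 2 or 3 (0.0533 to 0.0687). Of 26 factors of ribosome assembly and RNA modification, 8 were higher and 1 lower with fasting in CD (34.6%, against 25.2% of all genes). Those with the smallest p were Tfb1m, a methyltransferase of the small ribosomal RNA (0.59, adjusted p = 0.000786), the GTPase Mtg1 (0.52, adjusted p = 0.000936) and the helicase Ddx28 (0.48, adjusted p = 0.0027), while the methyltransferase Nsun4 fell by 0.54 in CD (adjusted p = 0.00298) and by 0.51 in HFD (adjusted p = 0.0128). Apart from Nsun4 in fasted HFD mice and Mterf4, which binds Nsun4, with HFD in fasted mice (-0.36, adjusted p = 0.0225), none of the 26 passed elsewhere. The call of Nsun4 in HFD was lost without HFD fed replicate 1 (0.0505) and that of Mterf4 without CD fast replicate 2 (0.0598) or HFD fast replicate 3 (0.0536) or 4 (0.0661) and with total counts (0.0973). With total counts 6 of the 26 were higher and 2 lower with fasting in CD (24.4% of all genes called), 3 were higher with HFD in fed mice (8.83% of all genes called) and 1 in fasted mice, where 12.3% of all genes were higher.

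Of 15 translation factors 1 was higher and 1 lower with fasting in CD, Guf1 (0.23, adjusted p = 0.0321) and Tsfm (-0.31, adjusted p = 0.0245), which is 13.3% against 25.2% of all genes. Mrrf, the recycling factor, was lower when HFD mice fasted (-0.31, adjusted p = 0.0272) and Oxa1l, the insertase, was lower with HFD in the fasted state (-0.37, adjusted p = 0.0332). None of these 4 calls held in every fit. That of Guf1 was lost with total counts (0.108) and without CD fast replicate 1, 2 or 4 or CD fed replicate 2 or 4 (0.0505 to 0.101), while its change was 0.37 with GC and length offsets (0.00617), and that of Tsfm without CD fast replicate 3 or CD fed replicate 2, 3 or 4 (0.0516 to 0.0693). That of Mrrf was lost without HFD fast replicate 1, 3 or 4 or HFD fed replicate 1, 2 or 3 (0.0541 to 0.081). That of Oxa1l was lost with total counts (0.173), with upper quartile scaling (0.0632) and without HFD fast replicate 2, 3 or 4 or CD fast replicate 1 or 2 (0.0545 to 0.0905), and its change without CD fast replicate 2 was -0.24.

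Of 20 aminoacyl-tRNA synthetases and related enzymes 1 was higher (Pars2, 0.76, adjusted p = 0.00145) and 4 lower with fasting in CD (25.0%, against 25.2% of all genes), among them Tars2 (-0.34), Nars2 (-0.47) and Aars2 (-0.43), and Pars2 was also higher with HFD in fed mice (0.84, adjusted p = 0.00262). With total counts 1 was higher and 7 lower with fasting in CD (8 of 20, against 24.4% of all genes), and 3 of 20 were higher with HFD in fasted mice (against 12.3% of all genes), where 0 were called with TMM. Of 12 genes of mitochondrial transcription and DNA maintenance 3 were higher and 0 lower with fasting in CD (25.0% called, against 25.2% of all genes, of which 13.7% higher), namely Tfam (0.35, adjusted p = 0.00143), Polg (0.33, adjusted p = 0.00436) and Mterf2 (0.98, adjusted p = 0.00507). Mterf2 was also higher when HFD mice fasted (1.07, adjusted p = 0.00903). With total counts 3 of the 12 were higher and 1 lower with fasting in CD, against 10.8% and 13.6% of all genes. Other calls of Polg were lost with most of the libraries left out in turn and are not described.

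Among 11 regulators tested, the coactivator Ppargc1a (1.24, SE 0.39, adjusted p = 0.0287) and the nuclear receptor Esrra (0.87, SE 0.16, adjusted p = 0.00117) were higher with fasting in CD, and Gabpb2 (-0.29) and Nfe2l2 (-0.43) lower (36.4% called, against 25.2% of all genes). Ppargc1a was at 10.2, 48.5, 14.2 and 27.8 CPM in CD fast livers, which overlapped the CD fed range of 6.31 to 15.7 CPM. Its change was 0.71 without CD fast replicate 2 (adjusted p = 0.143), and its call was also lost without CD fast replicate 4 (0.0606) or CD fed replicate 3 (0.0792) or 4 (0.0733). The interaction of Esrra was -0.92 (SE 0.22, adjusted p = 0.0401), with an adjusted p from 0.0559 to 0.0859 without CD fast replicate 4, CD fed replicate 1, 2 or 3, HFD fast replicate 3 or 4 or HFD fed replicate 2, 3 or 4. With total counts the high-fat diet raised 1 regulator in the fed and 2 in the fasted state, and 1 was higher and 1 lower in the interaction, where TMM gave 0, 0 and 1 lower. With total counts 8.83% (fed), 13.9% (fasted) and 2.92% (interaction) of all genes were called. Transcripts of Nrf1, Gabpa and Yy1 did not pass in any comparison, with changes from -0.26 to 0.16. Of the 13 mRNAs encoded by mitochondria, mt-Nd1 was higher with fasting in CD (0.46, adjusted p = 0.0423), and mt-Nd6 (-1.40, adjusted p = 0.0154) and mt-Co2 (-2.56, adjusted p = 0.0359) were lower with HFD in fasted mice. These were 1 of 13 (against 25.2% of all genes called) and 2 of 13 (against 4.65% lower). With HFD in fasted mice all 13 values were negative with TMM, with a median of -0.29, and 11 of 13 with total counts, with a median of -0.13, and most of the 13 did not pass in either. The mt-Nd1 libraries overlapped, and its call was lost with total counts (0.0538), with limma-voom (0.0503) and without CD fast replicate 1, 3 or 4, CD fed replicate 1, 2 or 4, HFD fast replicate 1, 2 or 3 or HFD fed replicate 1 (0.0503 to 0.121). The value of mt-Co2 rested on CD fast replicate 4, which was at 22.1 CPM where the other CD fast libraries were at 1.23 to 2.62 CPM and HFD fast libraries at 0.768 to 1.47 CPM. Without that library its change was -0.72 (0.134), and the call was also lost without any of the 4 HFD fast libraries (0.0564 to 0.103). With limma-voom the change of mt-Co2 was -1.62 (0.182). When only the fasted libraries were fitted, the calls of mt-Co2 (0.133) and mt-Nd6 (0.0564) were lost. How poly(A) selection recovered these mRNAs was not tested.

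Cytosolic ribosomal protein genes and nuclear OXPHOS genes are the families closest in function. Of 84 cytosolic ribosomal genes 1 was higher and 2 lower with fasting in CD (3.57% called, against 25.2% of all genes), 7 (8.33%) were lower when HFD mice fasted, against 4.07% of all genes, 39 (46.4%) were lower with HFD in the fed state, where 7.50% of all genes were called, and 70 (83.3%) in the fasted state, against 4.65% of all genes lower, where their median was -0.38. Of 79 OXPHOS genes 15 were higher and 2 lower with fasting in CD (21.5%, against 25.2% of all genes called), 1 and 5 when HFD mice fasted (7.59%, against 8.86%), 1 and 2 with HFD in the fed state (3.80%, against 7.50%) and 0 and 50 (63.3%) in the fasted state, with a median of -0.34. With total counts 30 cytosolic ribosomal and 19 OXPHOS genes were lower with HFD in fasted mice (1.66% of all genes), with medians of -0.22 and -0.18. In that scaling 6 cytosolic ribosomal genes were lower with HFD in the fed state (7.14%, against 8.83% of all genes called) and 3 when HFD mice fasted (3.57%, against 8.78%), and 9 OXPHOS genes were higher and 3 lower with fasting in CD (15.2%, against 24.4%). Of the 77 mitochondrial ribosomal genes 12 (15.6%) were lower and 0 higher with HFD in fasted mice with TMM scaling, against 4.65% of all genes lower, and 1 was lower and 1 higher with total counts, against 1.66% lower and 12.3% higher. A difference between the families was not tested.

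**Figure D5:**
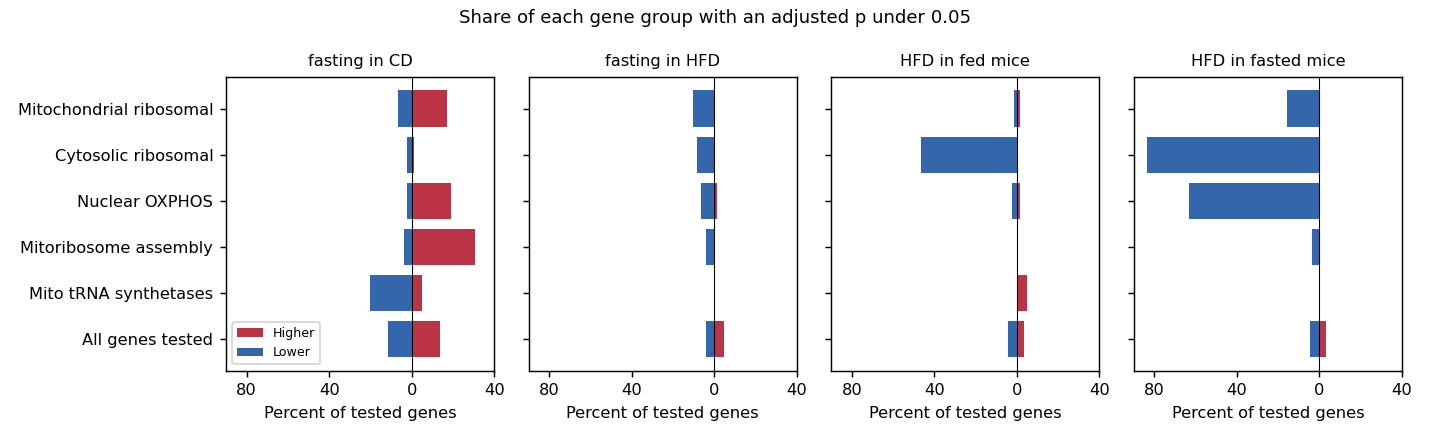
Percent of the tested genes of each group that were higher (right of 0) or lower (left of 0) at an adjusted p under 0.05 in 4 pairwise comparisons. With HFD in fasted mice 15.6% of mitochondrial ribosomal, 83.3% of cytosolic ribosomal and 63.3% of nuclear OXPHOS genes were lower, against 4.65% of all genes tested.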

How the data were processed

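RNA from 16 liver samples was poly(A)-selected and sequenced. The authors aligned reads to GRCm38 (mm10) with TopHat2 2.0.11 and counted them per gene with featureCounts, per the submitters' processing notes, and the deposited values are raw counts, from 41364448 to 57583153 per library. The study's methods state alignment as first-strand libraries (fr-firststrand) and an annotation from Illumina iGenomes, while the strand setting of the counting step, the annotation release and the handling of read pairs are not given in the sources used here. Counts were tested with edgeR 4.0.16 (R 4.3.3) by a quasi-likelihood fit over 4 groups of 4 libraries, with TMM scaling, the edgeR filter on low counts and Benjamini-Hochberg adjustment over 15075 genes. The fit had 12 residual degrees of freedom and a common coefficient of variation of 19.2%. A count of 3 corresponded to 0.0536 to 0.0768 CPM. The steps were tested on simulated data.

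Alternatives were DESeq2 1.42.0, limma-voom (limma 3.58.1), other scalings and filters, fits of only the groups compared, offsets for GC content and length, the replicate number as a block and leaving out each library. The members and lists were chosen with earlier results of these data known, and the motif letters after values were seen. Members named were, per pairwise comparison, up to 6 of each direction with the smallest p among those called, for the interaction the 3 of each sign with the smallest p, the 3 highest and 3 lowest levels per kilobase, the 3 most and 3 least like the mean of the others, and Mrps18a, Mrps18b, Mrps18c, Mrps30 and Mrps36. Further members and genes that overlap members were named after their values were seen. Exon length joins all exons of a gene in the GRCm38 annotation and may differ from the transcripts of the liver.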

Additional observations from a re-analysis of the deposited data

Results flagged for a closer look

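In each group of 4 libraries, the highest or lowest level of each member was compared with the others by Dixon's ratio, the gap to the nearest library over the whole range, against its tabled limit for 4 values. Of 308 sets of a member and a group 22 passed (7.14%), where chance gives about 1 in 20. HFD fast replicate 4 had 4 of these values, all low, with 22.8 CPM for Mrpl2, 22.0 CPM for Mrpl52, 20.2 CPM for Mrps10 and 31.1 CPM for Mrps2. HFD fed replicate 4 was low for Mrpl1 (18.9 CPM, where the nearest library had 25.7 CPM), Mrpl27 (27.7 CPM) and Mrps14 (18.3 CPM). HFD fed replicate 1 was low for Mrpl51 (39.98 CPM), Mrps15 (15.4 CPM) and Mrps2 (28.1 CPM), and HFD fed replicate 2 was high for Mrpl41 (16.0 CPM) and Mrpl57 (17.7 CPM). In HFD fast livers replicate 2 was high for Mrps16 (20.9 CPM) and replicate 3 low for Mrps18b (32.6 CPM).

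Among CD fed libraries, replicate 1 was low for Mrpl36 (17.97 CPM) and Mrpl57 (15.1 CPM), replicate 2 was high for Mrpl23 (15.99 CPM) and low for Mrpl24 (52.95 CPM), replicate 3 was high for Mrps23 (21.4 CPM) and replicate 4 low for Mrpl43 (24.6 CPM). Among CD fast libraries, replicate 2 was high for Mrpl17 (82.6 CPM) and replicate 1 low for Mrps21 (21.7 CPM). For Mrpl47 the change with fasting was 0.57 lower with HFD than with CD (-0.57), tested as the interaction in edgeR, as given with the interaction results.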

How the results depend on the processing

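None of the 31 member changes chosen by the naming rule changed sign under the settings run. Other member values in the text were not followed across settings one by one. In the order fasting (CD), fasting (HFD), diet (fed), diet (fasted) and interaction, 14 to 18, 1 to 13, 0 to 2, 5 to 17 and 0 to 2 members changed when 1 library was left out. In the same fits 19.2 to 26.2%, 3.36 to 10.8%, 3.38 to 8.29%, 3.54 to 8.89% and 0.982 to 3.10% of all genes were called. The members' median changes then ranged from -0.01 to 0.05, -0.13 to -0.06, -0.04 to 0.01, -0.19 to -0.13 and -0.18 to -0.10. Without a filter on counts 3 members changed for fasting (HFD), 1 for diet (fed) and 7 for diet (fasted). Of all genes 3.72%, 3.7% and 3.39% were called in these fits. With only the groups compared, fits with fewer samples, 3, 0 and 1 members changed, where 6.53%, 7.50% and 0.590% of all genes were called. With total counts 1 and 2 members changed for diet (fed) and diet (fasted), where 8.83% and 13.9% of all genes were called. The members' medians were then 0.0632 and -0.0092 and that of the interaction -0.0513, and the summed level in CD fast livers was 2063 CPM. The interaction called 6 members with DESeq2, 2 with GC and length offsets and 2 with a mean of at least 50 counts, where 7.07%, 3.46% and 4.19% of all genes were called, and the cause was not tested. Leaving out HFD fast replicate 4 with HFD fed replicate 4, chosen after seeing the data, left 4 members for fasting (HFD) and 6 for diet (fasted). Of all genes 6.91% and 4.51% were then called. Of 24 pairs from different groups with the same replicate number 8 correlated above 0.1 (range -0.243 to 0.662). The value of 0.662 was that of HFD fed replicate 4 and HFD fast replicate 4. Of 16 libraries 5 correlated best with their own number. Whether the numbers stand for a pairing or a shared batch cannot be told from these values. With the replicate number as a block 17, 10, 3, 13 and 1 members changed, with medians of 0.02, -0.09, -0.01, -0.16 and -0.14. Of all genes 26.2%, 9.55%, 8.01%, 8.56% and 2.38% were called in these fits. With block and GC offsets together 2 members changed in the interaction, where 3.41% of all genes were called. Among the pathway genes described, the block took the adjusted p above the threshold for the interaction of Esrra (-0.89, 0.0516) and for mt-Co2 with HFD in fasted mice (-2.02, 0.113). The smallest change of a member that was called was 0.16, for Mrpl42 with fasting in CD.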
